A study of Mus musculus with 4 samples.

Results

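Transcripts of 10 genes of threonine breakdown, the folate cycle and S-adenosylmethionine (SAM) metabolism were followed from mouse embryonic stem (ES) cells to epiblast-like aggregates (ELA) and in ELA treated with 1 of 2 chromatin inhibitors. The genes were Tdh, Gcat, Gldc, Shmt1, Shmt2, Mthfd1, Mthfd2, Mat2a, Ahcy and Phgdh, and every probe that the array design names for them was taken, which gave 16 probes among the 10 of 36039 genes measured. All 16 probes were well above background on all 4 arrays, so every gene had a measured level in every group.

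Each group had 1 single-colour Agilent array, hybridised with RNA pooled from 3 experiments on the line E14Tg2A (strain 129/Ola). ES cells were untreated cells at day 0, taken from medium with leukaemia inhibitory factor and serum. ELA cells were untreated and had aggregated for 2 days in a chemically defined minimal medium. AZA cells were ELA cells at day 2 grown with 50 nM 5-azacytidine, a cytosine analogue that blocks DNA methyltransferases, and CHQ cells were ELA cells at day 2 grown with 100 µM 5-carboxy-8-hydroxyquinoline, an inhibitor of lysine demethylases. All groups come from a single cell line, and in bulk RNA fewer cells of a type and less RNA per cell cannot be told apart. The ES and ELA arrays lay on a first slide and the AZA and CHQ arrays on another. ELA against ES and CHQ against AZA were therefore compared within a slide, whereas in each treatment against ELA the treatment and the slide cannot be told apart, and both of these comparisons share the ELA array.

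Mammalian cells make SAM, the methyl donor for DNA and histone methylation, from methionine, and folate carries the carbon units that regenerate methionine from homocysteine. These units come mainly from serine and glycine. Mouse ES cells are known for a further source, because they express threonine dehydrogenase, the product of Tdh, and break threonine down to glycine in mitochondria.

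The levels below are normalised log2 intensities of a probe, so a difference of 1 is a doubling. A level is set only against the level of the same probe on another array, except where the probes of a gene are ranked by brightness. Where a gene had several probes, the brightest stands for the gene, and the others of the 10 genes are all given beside it. With 1 array per group no p-value was computed. A gene was called when 2 arrays differed by 1 or more, their mean level reached 7.5 and its probe stood well above background on either array. Repeated spots of a probe within an array had a pooled SD of 0.13 to 0.16, which covers spotting and reading and not the variation between cultures. A difference under this spread is not distinguishable from reading error, and how far any larger difference exceeds the variation between cultures could not be measured.

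The upstream sequences of Phgdh, Shmt2 and Gcat, the called genes with a sequence in the promoter table used here, are shown because 5-azacytidine acts on the methylation of CG dinucleotides, which stand in capitals. Each run holds the 250 bases before the annotated start, 5′ to 3′ on the gene's own strand, from RefSeq (GRCm38.p6). They lie at chr3:98339970-98340219 on the minus strand for Phgdh, chr10:127522445-127522694 on the minus strand for Shmt2 and chr15:79030624-79030873 on the plus strand for Gcat.
Phgdh: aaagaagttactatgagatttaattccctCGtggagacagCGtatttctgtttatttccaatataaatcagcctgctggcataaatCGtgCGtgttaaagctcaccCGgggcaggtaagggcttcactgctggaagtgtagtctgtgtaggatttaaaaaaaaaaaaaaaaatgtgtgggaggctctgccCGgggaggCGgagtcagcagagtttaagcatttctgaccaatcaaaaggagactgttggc
Shmt2: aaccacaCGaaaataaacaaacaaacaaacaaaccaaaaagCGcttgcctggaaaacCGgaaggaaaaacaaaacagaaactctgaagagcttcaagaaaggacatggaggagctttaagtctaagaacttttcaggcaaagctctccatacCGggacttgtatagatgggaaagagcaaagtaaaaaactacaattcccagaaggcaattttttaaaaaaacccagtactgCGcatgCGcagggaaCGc
Gcat: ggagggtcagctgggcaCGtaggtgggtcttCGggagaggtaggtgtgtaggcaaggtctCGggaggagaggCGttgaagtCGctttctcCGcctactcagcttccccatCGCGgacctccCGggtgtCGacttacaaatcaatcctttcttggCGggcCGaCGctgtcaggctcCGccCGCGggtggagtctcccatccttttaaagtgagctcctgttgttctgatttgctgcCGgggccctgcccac
Phgdh and Shmt2 each held 7 CG dinucleotides in this window and Gcat held 17, against a median of 6 over 32851 windows of the same length. Across the 9 genes with a sequence in the promoter table used here, which held none for Tdh, the number ran from 7 to 29, with Mat2a the highest. Of the 9 windows, 0 held TGATGNAA, a motif of the amino acid response factor ATF4, and 0 held CACGTG, the E-box motif, on either strand. Among all windows 3.45% held the former and 6.02% the latter. Gcat was called in the comparisons of CHQ and not in AZA against ELA. No methylation was measured on these arrays, and the part of CG methylation in the values of these genes was not tested.

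**Figure D1:**
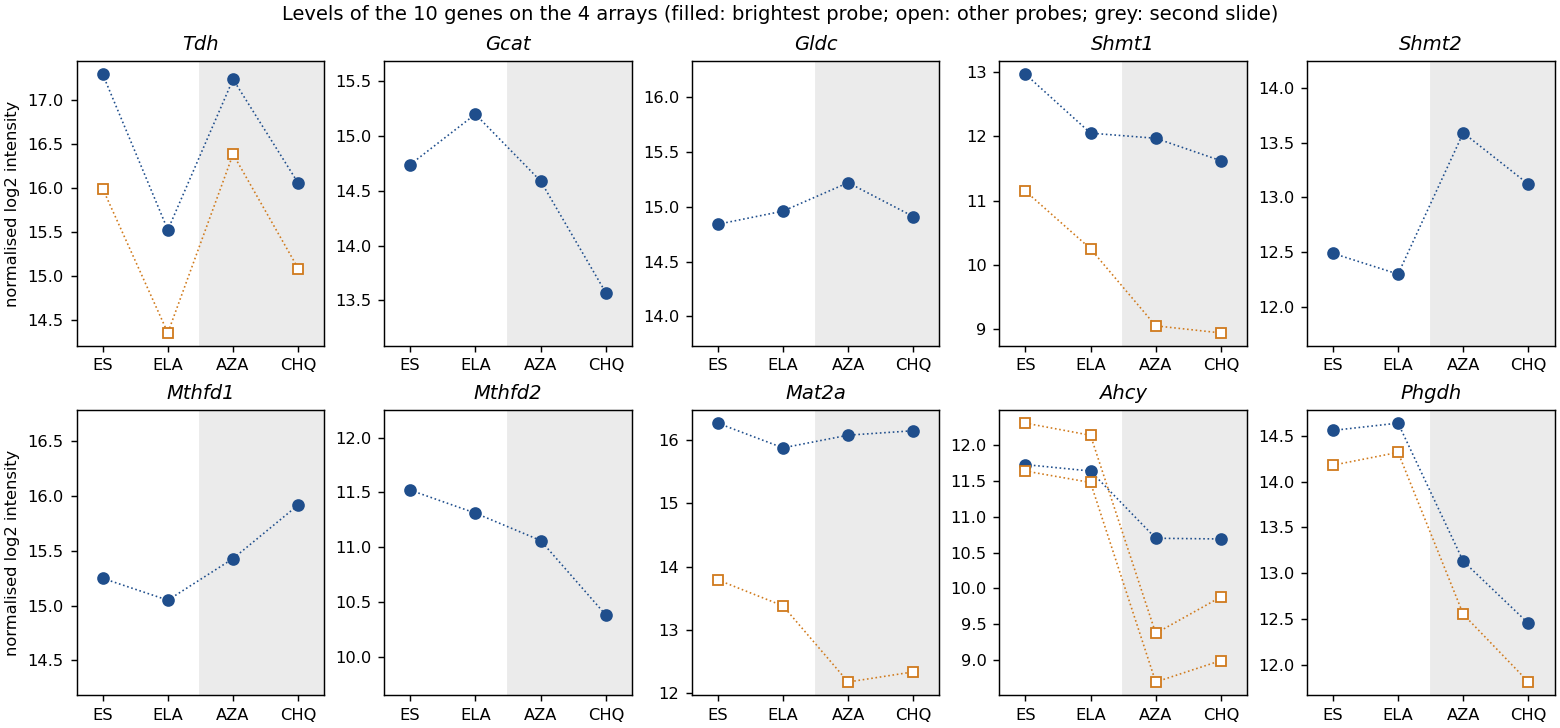
Normalised log2 intensity of each of the 10 genes on the ES, ELA, AZA and CHQ arrays, with filled points for the brightest probe, open squares for other probes, dotted lines that join the points of a probe, and grey for the arrays of the second slide. Each panel has its own axis range. Tdh falls from 17.29 in ES to 15.52 in ELA and stands at 17.23 in AZA, while Phgdh stands near 14.6 in ES and ELA and at 13.13 and 12.45 in the treated cells.

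Tdh had the widest change of the 10 genes between ES and ELA. Its brightest probe (mouse build mm9, chr14:64111327-64111386, minus strand) read 17.29 in ES, 15.52 in ELA, 17.23 in AZA and 16.05 in CHQ. Tdh was thus high in ES and in AZA, lowest in ELA and between them in CHQ. The difference was -1.78 for ELA minus ES, a 3.42-fold lower level, and 1.71 for AZA minus ELA, a 3.27-fold higher level.

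In CHQ the Tdh level stood 0.54 above ELA, which was not called and was -0.09 when the arrays were scaled to spike-in probes. Within the slide of the treated cells, Tdh was 1.17 lower in CHQ than in AZA, a 2.25-fold difference. The AZA level differed from the ES level by -0.07, less than the spread of repeated spots, and the CHQ level by -1.24, with both of these comparisons crossing slides. The near equality of AZA and ES depended on the normalisation, since the difference was -0.59 with scaling to the 75th percentile and -1.25 with scaling to spike-in probes. The difference of CHQ from ES was -1.92 and -2.68 under the same 2 scalings. The other Tdh probe, at chr14:64111366-64111425, read 15.99, 14.35, 16.38 and 15.08 in ES, ELA, AZA and CHQ. It had the same order but for AZA, which stood 0.39 above ES. The probes are not independent, because they share the following 21 bases of the transcript.
Tdh, both probes: cacaaaggccagagaaatgaa
Among 18947 genes tested between ES and ELA, 341 lay further below than Tdh.

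The order of Tdh across the arrays was compared with that of 13168 genes that carry a plain gene symbol, clones and numbered loci left out, and were well above background on all 4 arrays, after each gene was centred on its own mean. The closest were Pde1b, a cyclic nucleotide phosphodiesterase, with a root mean square difference of 0.09, Pcolce2 with 0.10, Atp6v0a4 with 0.11, Dmtn with 0.11 and Tead4, a trophoblast transcription factor of the Hippo pathway, with 0.13. These values describe 4 arrays only. Markers of the ES state are given beside it. All 6 pluripotency markers were well above background on every array, and their mean level was 15.07 in ES, 13.52 in ELA, 14.96 in AZA and 14.20 in CHQ. Single markers did not all share this order. Zfp42, a marker of the ground state, read 15.80, 11.99, 15.72 and 15.04 and followed it, and so did Dppa5a. Pou5f1, shared by ES and epiblast cells, read 14.95, 14.46, 14.05 and 13.56, lowest in the treated cells, and Tdgf1 stood at 12.92, 12.08, 12.73 and 12.96 at its brightest probe. The other 2 Tdgf1 probes gave far larger differences, of -4.48 and -4.27 for ELA minus ES and 4.17 and 4.24 for CHQ minus ELA. Nanog read 15.03, 12.53, 15.39 and 12.54 at its brightest probe, while its other probe differed by 0.23 for ELA minus ES and -1.55 for AZA minus ELA. The 4 epiblast markers had a mean of 14.67 in ES, 16.00 in ELA, 14.63 in AZA and 15.45 in CHQ. Fgf5 and Dnmt3b were highest in ELA, at 14.47 and 18.49, but Otx2 was highest in AZA, at 16.17, and Pou3f1 in CHQ, at 15.48. The part of cell state in the Tdh values was not tested.

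Gcat, the enzyme that completes threonine breakdown by releasing glycine, did not follow Tdh. Its probe (chr15:78867788-78867847, plus strand) read 14.74 in ES, 15.20 in ELA, 14.59 in AZA and 13.57 in CHQ. CHQ was thus the lowest array, 1.64 below ELA (3.11-fold lower) and 1.02 below AZA (2.03-fold lower), and both differences were called. The AZA level was 0.62 below ELA, and the ELA level was 0.47 above ES, a difference that was -0.30 under spike-in scaling. In AZA the paired enzymes of threonine breakdown therefore differed, with Tdh called higher and Gcat not called, whereas in CHQ Gcat was called lower and Tdh was not called.

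Gldc, the decarboxylase of the glycine cleavage system, which passes a carbon from glycine to folate, was called in 0 comparisons. It read 14.84 in ES, 14.96 in ELA, 15.22 in AZA and 14.91 in CHQ (chr19:30172983-30173042, minus strand), so that the differences in the 4 comparisons ran from -0.31 to 0.25. Scaling to spike-in probes gave larger ones, of -0.66 between ELA and ES, and for CHQ of -0.58 against ELA and -0.60 against AZA. The other subunits were Amt, Gcsh and Dld, and 0 of these were called in any comparison. Amt, the aminomethyltransferase, read 9.44, 9.17, 9.06 and 9.08 on the same arrays.

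The serine hydroxymethyltransferases, which move a carbon from serine to folate, differed between the mitochondrial and the cytosolic form. Shmt2, the mitochondrial enzyme, read 12.49 in ES, 12.30 in ELA, 13.59 in AZA and 13.12 in CHQ (chr10:126954811-126954870, minus strand). Both arrays of treated cells were above both arrays of untreated cells. With scaling to spike-in probes the Shmt2 difference was -0.93 for ELA minus ES and 0.60 for CHQ minus ELA, so CHQ then stood below ES. The AZA difference of 1.29, 2.45-fold, was called, and the CHQ difference of 0.82, 1.76-fold, was not, while CHQ and AZA differed by -0.47. Shmt1, the cytosolic enzyme, read 12.97 in ES, 12.05 in ELA, 11.97 in AZA and 11.62 in CHQ at its brightest probe (chr11:60603099-60603158). The difference for ELA minus ES was -0.92, and its other probe (chr11:60620453-60620512) gave -0.91, just short of the threshold at both. With the treatments the 2 Shmt1 probes gave different sizes, as described below.

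Mthfd1, the cytosolic enzyme that interconverts folate forms, read 15.25 in ES, 15.05 in ELA, 15.43 in AZA and 15.92 in CHQ (chr12:77418622-77418681). Its mitochondrial counterpart Mthfd2 read 11.52, 11.31, 11.06 and 10.38 (chr6:83256518-83256577). In CHQ the 2 enzymes thus stood on opposite sides of ELA, at 0.87 for Mthfd1 and -0.93 for Mthfd2, and neither was called. The Mthfd2 difference passed the threshold under 3 of the 11 alternative settings and that of Mthfd1 under 0. With scaling to the 75th percentile and to spike-in probes the Mthfd1 difference was smaller, at 0.4 and 0.31, where Mthfd2 gave -1.0 and -1.01.

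Phgdh, which catalyses the committed step of serine synthesis from a glycolytic intermediate, was lower in both treatments. Its brightest probe (chr3:98117215-98117274, minus strand) read 14.56 in ES, 14.64 in ELA, 13.13 in AZA and 12.45 in CHQ. The untreated cells differed by 0.07, less than the spread of repeated spots (-0.72 with scaling to spike-in probes), and both treated arrays stood below both untreated arrays. The difference was -1.50 in AZA (2.84-fold lower) and -2.18 in CHQ (4.54-fold lower), and both were called. The other probe, 87 bases upstream, read 14.18, 14.32, 12.55 and 11.81 and gave -1.77 and -2.51. Within the slide of the treated cells, CHQ was 0.68 below AZA, which was not called.

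In CHQ minus ELA, 242 of 19163 genes lay further below than Phgdh. The genes closest to its pattern were Pdlim2 with a root mean square difference of 0.05, Tbl3 with 0.07, Spink2 with 0.09, Pycrl with 0.10 and Lrrn4 with 0.11. The later enzymes of serine synthesis, Psat1 and Psph, were called in 0 comparisons. Psat1 read 14.61 in ES, 14.37 in ELA, 14.34 in AZA and 13.91 in CHQ. A further Psat1 probe differed from ELA by -1.32 in AZA and -1.57 in CHQ, so that the probes of this gene did not give the same size.

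Mat2a makes SAM and Ahcy removes S-adenosylhomocysteine, the product left after SAM gives up its methyl group. Mat2a read 16.26 in ES, 15.87 in ELA, 16.07 in AZA and 16.14 in CHQ at its brightest probe (chr6:72382856-72382915). This gave -0.39 for ELA minus ES and 0.20 and 0.27 for the treatments against ELA, none of them called. Ahcy read 11.73, 11.64, 10.70 and 10.69 at its brightest probe over the 4 arrays (chr2:154885047-154885106). In ES and ELA alone the middle probe, described below, was the brighter, so that the falls of the other probes in the treated cells decided which probe stands for Ahcy. The chosen probe differed by -0.10 between the untreated cells, and by -0.94 in AZA and -0.95 in CHQ from ELA, just short of the threshold, which Ahcy passed under 5 of the 11 alternative settings.

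Other probes of Ahcy, Mat2a and Shmt1 gave larger falls with both treatments. Both other Ahcy probes were called in both treatments. The most upstream (chr2:154894644-154894703) read 11.64 in ES, 11.48 in ELA, 8.69 in AZA and 8.99 in CHQ, or -2.79 and -2.49 against ELA. The middle probe (chr2:154891321-154891380) read 12.31, 12.14, 9.37 and 9.88, or -2.77 and -2.26. The upstream Mat2a probe (chr6:72385926-72385985) read 13.79 in ES, 13.38 in ELA, 12.18 in AZA and 12.34 in CHQ. It gave -1.19 and -1.04, opposite in sign to the downstream probe, so no direction is given for Mat2a with the treatments. The upstream Shmt1 probe read 11.15, 10.25, 9.05 and 8.94, or -1.20 in AZA and -1.30 in CHQ, where the downstream probe gave -0.09 and -0.43.

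The stretches that these probes read are shown so that they can be placed on the transcripts. Each line gives the leading 30 of the 60 bases of a probe, 5′ to 3′ on the transcript, with the most upstream probe of a gene before the others. All 7 lie on minus-strand genes at the mm9 positions given above, and their place in exons or untranslated regions was not analysed here.
Shmt1 upstream: atgccaccctgtgggcttctcatgagaaga
Shmt1 downstream: ttgacatcccgaggacttttggaagaagac
Mat2a upstream: tcccatcagagtccacacgattgttatatc
Mat2a downstream: tgactgcttgccctaagcaagaaagtgcct
Ahcy upstream: atgagatgccaggattgatgcgcatgcggg
Ahcy middle: gcattgagcagacgctgcacttcaaggacg
Ahcy downstream: acttaacccatttgacctggaaagcaaata

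The gap between the outer probes, upstream minus downstream, was near 0 for these genes in ELA minus ES, at -0.06 for Ahcy over 9597 bases of genome, -0.02 for Mat2a over 3070 and 0.01 for Shmt1 over 17354. In AZA minus ELA the gap was -1.85 for Ahcy, -1.40 for Mat2a and -1.11 for Shmt1, and in CHQ minus ELA it was -1.54, -1.31 and -0.87. In CHQ minus AZA, within a slide, it was 0.31, 0.09 and 0.24. The gap thus appeared where treated and untreated arrays, and with them the slides, were set against each other.

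The same gap was measured over all 2888 genes with probes at least 1000 bases apart that were well above background on every array. Its median was -0.05 in ELA minus ES, -0.23 in AZA minus ELA, -0.38 in CHQ minus ELA and -0.09 in CHQ minus AZA. The upstream probe was the lower in 58.1%, 63.7%, 70.8% and 60.7% of these genes in the same order, and a gap of -1 or less was found in 2.46%, 16.6%, 18.9% and 4.40%. The genes were split by brightness on the ES array, which enters neither treatment against ELA. Where the upstream probe was the dimmer there, the median was -0.36 in AZA and -0.50 in CHQ, each against ELA (1928 genes). Mat2a and Shmt1 belong to this set. Ahcy was counted in it too, but its outer probes read 11.64 and 11.73 in ES, closer than the spread of repeated spots. Where the upstream probe was the brighter, the median was -0.01 and -0.12 (960 genes). In 2222 genes with closer probes the median was -0.03 and -0.04. The part of RNA length, of dim signal or of transcript variants in these gaps was not tested, and the probes of Tdh and of Phgdh lie too close together for this comparison.

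**Figure D2:**
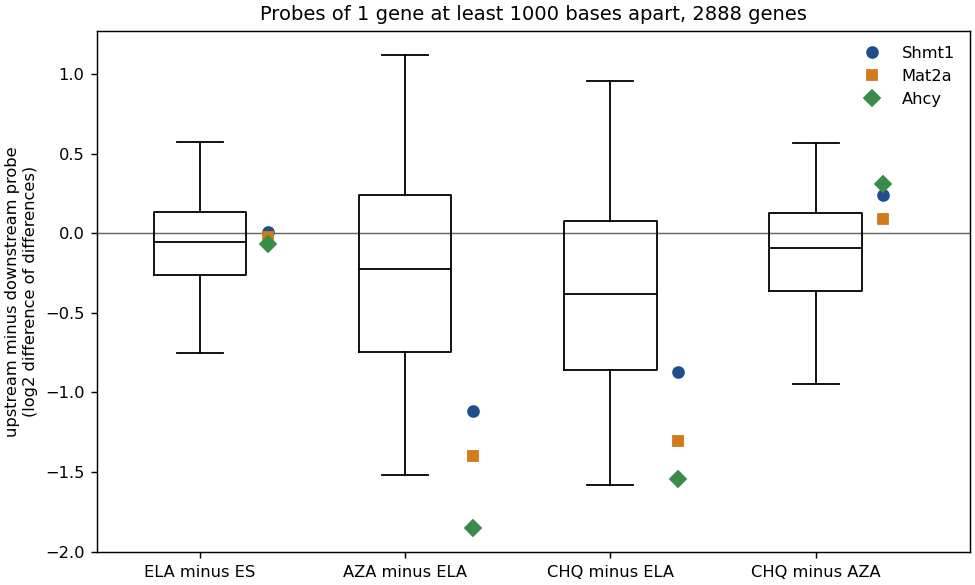
Difference at the upstream probe minus difference at the downstream probe (log2) of 2888 genes with probes at least 1000 bases apart, in the 4 comparisons, with boxes from the lower to the upper quartile, a line at the median and whiskers at the 5th and 95th percentiles. Points mark Shmt1, Mat2a and Ahcy, which lie near 0 in ELA minus ES and between -0.87 and -1.85 in the treatments against ELA.

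Between ES and ELA, 1 of the 10 genes was called, Tdh, which was lower in ELA. The background of that comparison was 10.0% of genes called, 4.45% higher and 5.59% lower, so the count for the 10 genes was that of the array at large. The median difference of the 10 genes was -0.20, beside -0.02 over all genes tested, and 7 of the 10 had a negative difference, as did 9856 of the 18947 genes tested.

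With AZA, 3 of the 10 were called against ELA, Tdh and Shmt2 higher and Phgdh lower. Over all genes 25.6% were called, 14.3% higher and 11.4% lower, and the median was 0.06 for the 10 genes and -0.07 for all. The median of the 10 was negative under 4 alternatives, at -0.13 with scaling to the 75th percentile, -0.07 with scaling to spike-in probes, -0.37 with the mean over probes and -0.43 at the most upstream probe. With CHQ, 2 of the 10 were called against ELA, Gcat and Phgdh, both lower, where 26.6% of all genes were called, 14.8% higher and 11.9% lower. The medians were -0.24 and -0.09. Tdh and Gcat were called lower in CHQ than in AZA, where 10.3% of all genes were called, 5.53% higher and 4.81% lower, and the medians were -0.41 and -0.02. At the brightest probes the share of the 10 genes called was thus near or below the background in each treatment against ELA. In CHQ against AZA it was above the background, but it rested on 2 genes and the excess was not tested. The counts depended on the probe chosen. At the most upstream probe, 6 of the 10 were called in AZA against a background of 26.6%, and 5 of the 10 in CHQ against 27.4%, with Shmt1, Mat2a and Ahcy added in both. At the probe brightest on the ES array, 4 were called in AZA and 3 in CHQ, with Ahcy added in both, against backgrounds of 25.6% and 26.5%. Phgdh was called lower in both treatments under all 11 alternative settings, though some of these could not change its value.

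**Figure D3:**
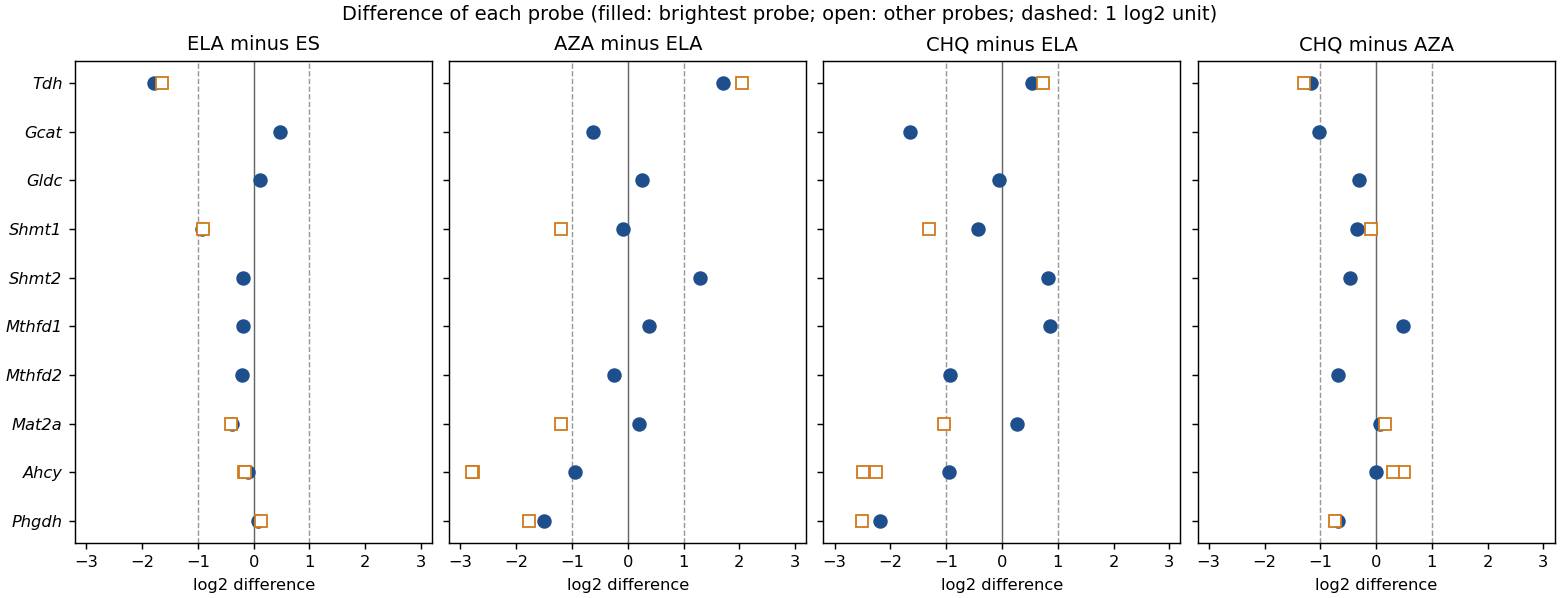
Log2 difference of each probe in the 4 comparisons, with filled points for the brightest probe of a gene, open squares for its other probes, and dashed lines at the threshold of 1 in either direction. The probes of a gene lie close together in ELA minus ES, those of Ahcy run from -0.01 to 0.50 in CHQ minus AZA, and those of Shmt1, Mat2a and Ahcy lie furthest apart in both treatments against ELA.

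A further 51 genes of serine, folate, methionine and polyamine metabolism were listed, of which 50 were on the array. Between ES and ELA, 2 of the 41 that could be tested (4.88%) were called, both lower, where 10.0% of all genes were, and the median was -0.25. Folr1, a folate receptor of the cell surface, read 13.84 in ES, 10.32 in ELA, 13.07 in AZA and 10.79 in CHQ. It was thus 3.52 lower in ELA than in ES and 2.75 higher in AZA than in ELA, and its other probe gave -2.97 and 1.67. Cth, which makes cysteine from cystathionine, read 12.47, 11.05, 13.02 and 12.90, with both treated arrays above both untreated ones. Its other probe differed by -1.43 between ELA and ES and, against ELA, by 1.90 in AZA and 1.81 in CHQ. With scaling to spike-in probes the Cth differences were -2.16 for ELA minus ES and, against ELA, 1.92 in AZA and 1.66 in CHQ. Both treated arrays then stood below ES. Folr1, like Tdh, was lower in ELA and in CHQ than in ES and in AZA.

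With AZA 14 of the 45 genes tested (31.1%) were called, 9 higher and 5 lower, where 25.6% of all genes were, and the median of the 45 was -0.01. Among the genes well above background on both arrays, 11 of 42 (26.2%) were called, where 24.1% of all such genes were. The 3 neighbouring genes Bhmt, Bhmt2 and Dmgdh, which lie side by side on chromosome 13 in RefSeq (GRCm38.p6), were all higher. Bhmt, which remethylates homocysteine with betaine, read 6.73 in ES, 6.06 in ELA, 10.57 in AZA and 7.90 in CHQ. Dmgdh, a dimethylglycine dehydrogenase that hands its carbon to folate, read 7.23, 6.05, 10.34 and 7.86, and Bhmt2 read 7.25, 7.05, 9.50 and 7.32. All 3 were not well above background in ELA, and entered the test through AZA alone, so their folds there are approximate. The AZA level was set against the lowest level well above background on the ELA array or the gene's own level, whichever was higher. By this measure AZA was 14.2-fold higher for Bhmt, 12.1-fold for Dmgdh and 5.46-fold for Bhmt2. These are not strict lower bounds. That lowest level was 6.74, yet Bhmt2 at 7.05 in ELA was not well above background. With scaling to spike-in probes the Bhmt2 difference was 2.21 in place of 2.45. The other Bhmt probes gave smaller differences for AZA minus ELA, of 2.16 and 3.89, so the Bhmt fold applies to its brightest probe only. Within the slide of the treated cells, all 3 were lower in CHQ than in AZA, by -2.67 for Bhmt (-1.51 and -2.60 at its other probes), -2.48 for Dmgdh and -2.18 for Bhmt2.

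Adk, the adenosine kinase that removes the adenosine released by the Ahcy reaction, was low in AZA alone. It read 14.39 in ES, 14.57 in ELA, 11.10 in AZA and 14.11 in CHQ, so that AZA differed from ELA by -3.46 and CHQ from ELA by -0.46, and the difference was called in AZA and, within a slide, between CHQ and AZA. Its other probe gave -2.84 for AZA minus ELA and, against AZA, 2.44 for CHQ. Mthfd2l, a mitochondrial relative of Mthfd2, read 11.12, 11.93, 8.84 and 9.87, lower in both treatments.

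With CHQ, 6 of the 42 genes tested (14.3%) were called against ELA, 4 higher and 2 lower, where 26.6% of all genes were, and the median was -0.12. Aldh1l1, which oxidises formyl folate to carbon dioxide in the cytosol, read 10.72 in ES, 10.87 in ELA, 14.58 in AZA and 15.20 in CHQ. Its rise was 4.32 in CHQ and 3.70 in AZA, and ES and ELA differed by 0.16. Cbs, which starts the conversion of homocysteine to cysteine, read 12.84, 12.98, 14.30 and 14.75, and Ftcd, a formiminotransferase of histidine breakdown, read 6.96, 7.14, 8.65 and 9.35. Cbs and Cth, the paired enzymes of transsulfuration, were thus called higher in both treatments. Sms, the spermine synthase, read 14.39, 14.51, 13.23 and 12.85, lower in both, with its other probes between -2.82 and -1.60 for CHQ minus ELA.

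Between CHQ and AZA, 8 of 45 (17.8%) were called, where 10.3% of all genes were, 2 higher in CHQ, which were Adk and Mthfd2l, and 6 lower. The lower genes not yet described were Gamt, which makes creatine with a methyl group from SAM, at -1.57 (-1.82 at its other probe), and Enoph1 of methionine salvage, at -1.22. The median was -0.12.

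**Figure D4:**
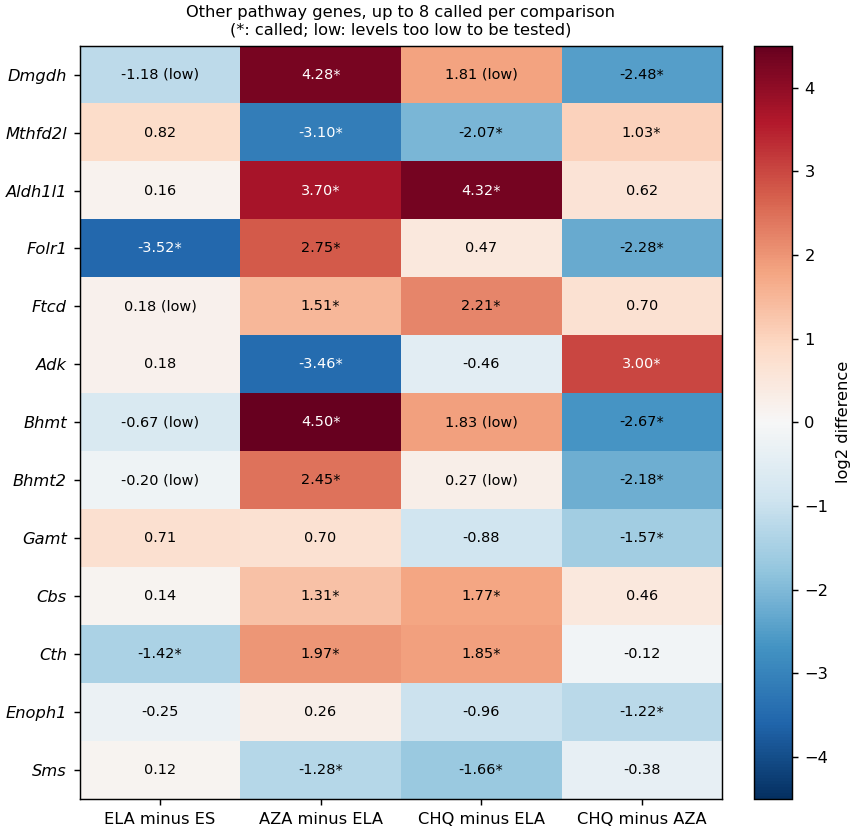
Log2 difference (colour scale and printed number) of the listed pathway genes outside the 10, up to 8 called per comparison, with an asterisk where a gene was called and "low" where its levels were too low to be tested. Aldh1l1, Cbs and Cth are higher and Mthfd2l and Sms lower in both treatments, and Adk is lower in AZA alone.

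Values of other gene groups stood beside these results as follows. Of 16 proliferation genes, 0 were called at their brightest probes in each of the 4 comparisons, with medians between -0.16 and 0.02. Other probes of Ccnb1 and Cdk1 reached -1.17 and -1.18 in CHQ minus ELA, where the brightest gave -0.68 and -0.41. Of 16 tested ATF4 targets, genes of the response to amino acid shortage, to which Phgdh and Shmt2 are also assigned, 4 were called higher with AZA and 6 with CHQ against ELA, where 14.3% and 14.8% of all genes were, 0 were called lower, and the medians were 0.50 and 0.63. Between ES and ELA, 3 of them were called higher in ELA (Chac1, Ddit3 and Vldlr) and Slc7a1 was called lower, where 4.45% and 5.59% of all genes were, with a median of 0.35. Between CHQ and AZA, 3 were called higher (Atf3, Vldlr and Atf5), where 5.53% of all genes were, with a median of 0.06. The other Vldlr probe fell short of the threshold there, at 0.29, and in CHQ against ELA, at 0.66. The widest rises with AZA were those of Ddit4, Nupr1 and Slc7a1, a transporter of basic amino acids. Ddit4 read 14.69 in ES, 15.19 in ELA, 17.39 in AZA and 18.22 in CHQ, Nupr1 read 10.20, 9.91, 12.85 and 12.01, and Slc7a1 read 12.83, 11.77, 14.05 and 13.71. Of the 16 targets, 3 had a negative difference with AZA, down to -0.89 for Atf3, and 2 with CHQ, down to -0.44. The Slc7a5 probes differed in sign, at 0.55 with AZA and 0.51 with CHQ for the brightest and -0.38 and -0.46 for the other. The part of this response in the values of the 10 genes was not tested.

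Among markers of other cells, the 6 of primitive endoderm had a mean level of 6.86 in ES, 6.96 in ELA, 7.35 in AZA and 8.04 in CHQ, with sums from 41.17 to 48.26, and 3, 2, 6 and 5 of them were well above background. Gata6 read 6.41, 6.69, 8.06 and 9.89, and was not well above background in ES and ELA, whereas Dab2 read 7.48, 8.25, 6.78 and 6.91 and was called lower in both treatments. Sox17, like Gata6, was not well above background in ES and ELA. Gata6 and Sox17 were called higher in CHQ than in ELA, by 3.2 and 2.74 (1.38 at the other Sox17 probe). Within a slide these genes were also called higher in CHQ than in AZA, by 1.83 and 1.75 (1.16 at the other Sox17 probe). Of 5 trophoblast markers, 4, 2, 3 and 4 were well above background, with sums from 43.10 in ELA to 48.99 in ES, and the members moved apart. Tfap2c read 12.65, 9.79, 11.90 and 13.23 and was called in all 4 comparisons, Krt8 read 15.17, 14.37, 12.57 and 13.17 and was called lower in both treatments (more so at its other probe, at -2.42 in CHQ), and Elf5 stood between 5.90 and 6.53. The 4 neural markers had a mean of 10.30, 10.73, 9.27 and 9.13, with sums from 36.50 to 42.91, and Tubb3 (-2.65 in AZA, -3.29 in CHQ) and Nes (-1.67 and -1.24) were called lower in both treatments. The 4 fibroblast markers had a mean of 8.99, 9.91, 9.21 and 8.72, with sums from 34.87 to 39.64. Thy1 (1.5) and Dcn (2.24) were called higher in ELA than in ES, where Dcn was not well above background. Against ELA, Col1a1 was called higher in AZA, and Col1a2 (-1.87) and Dcn (-1.43) were called lower there. In CHQ against ELA, Col1a2, Thy1 (-2.31) and Dcn (-1.26) were called lower, and Col1a1 (0.79) was not called. Thy1 was also called lower in CHQ than in AZA (-1.51). The part of these cells in the values of the 10 genes was not tested.

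The arrays differed in technical measures that follow the slides. On the ES and ELA arrays 60.6% and 55.1% of gene spots stood well above background, and on the AZA and CHQ arrays 69.1% and 69.2%. The local background had a median intensity of 59 and 77 on the former and of 14 and 13 on the latter. No gene spot was saturated, and each of the 16 probes was read from 1 spot per array. The number of arrays limits the precision of every value given here.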

How the data were processed

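RNA of 4 groups (ES, ELA, AZA, CHQ) was measured on 4 arrays, each a pool of 3 experiments. Per the file headers, the authors read the scans with Agilent Feature Extraction 10.7.3.1, and the deposited scanner files hold mean and local background intensity per spot, not normalised between arrays. The deposited value table holds log2 values, background-corrected and quantile-normalised by the authors with limma, and was used as an alternative.

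From the scanner files, mean intensities were corrected by normexp (offset 50) and quantile-normalised with limma 3.58.1 in R 4.3.3, then control spots and spots with an outlier flag were left out. Of 55681 probes, 559 had no usable spot on some array. Gene names came from RefSeq (GRCm38.p6) for 47.7% of probes and otherwise from the array design. Probe positions are those of the files (mm9). The call rule follows the size thresholds stated in the report, and the scripts were tested on simulated data. The members, the lists and the comparisons were chosen with earlier results of these data known. Named were all members with every probe, up to 8 called pathway genes per comparison, and the 5 genes nearest in pattern to Tdh and to Phgdh. There were 8 alternatives planned: normexp with no offset, no background subtraction, scaling to the 75th percentile, scaling to spike-in probes, the value table, the mean over probes, no filter on dim probes, and probes well above background on both arrays. The most upstream probe, the most downstream probe and the probe brightest on the ES array were added after seeing the data.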

Additional observations from a re-analysis of the deposited data

How the results depend on the processing

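With 1 array per group no array could be left out. No paired analysis was possible because each group held 1 array and the groups shared only a replicate number. Under all 11 alternatives Tdh stayed past the threshold in its called comparisons (-2.59 to -1.65 for ELA minus ES, 1.34 to 2.04 for AZA minus ELA, -1.43 to -1.15 for CHQ minus AZA). So did Shmt2 with AZA (1.04 to 1.34) and Phgdh with AZA (-1.77 to -1.50) and with CHQ (-2.51 to -2.18). Gcat did so in CHQ against ELA (-2.02 to -1.64) and AZA (-1.17 to -1.02). Not every alternative could change a difference. The filter settings changed no value, and the most downstream probe was the brightest for every member with several probes. Shmt2 and Gcat have a single probe each, so no choice or mean of probes could move them. For these genes only the background corrections, the scalings and the value table could. Of 440 values (40 differences under 11 alternatives), 368 lay within 0.16 of the value reported. That count includes the values that could not differ, so it is no measure of robustness. The count of members called for ELA minus ES was 2 with 75th percentile scaling (Shmt1 added, 11.5% of all genes called) and 3 with spike-in scaling (Shmt1 and Mat2a added, 24.1%). For CHQ minus ELA it was 4 with spike-in scaling (31.9% of all genes) and 4 in the value table (29.7%), with Mthfd2 and Ahcy added in both, and 5 at the most upstream probe (27.4%), where AZA minus ELA gave 6 (26.6%). The members' median for AZA minus ELA turned to -0.13 with 75th percentile scaling, -0.07 with spike-in scaling, -0.37 with the mean over probes and -0.43 at the most upstream probe. For CHQ minus ELA it was -0.53, -0.62 and -0.98 with 75th percentile scaling, the mean over probes and the most upstream probe, and -0.56 with spike-in scaling, which also gave -0.92 for ELA minus ES and -0.62 for CHQ minus AZA. Spike-in scaling moved the median of all genes to -0.67 for ELA minus ES, where 4936 genes were called (270 higher, 4666 lower) in place of 1904, and to -0.33 for CHQ minus ELA, where 2186 were higher and 3698 lower in place of 2829 and 2272. With 75th percentile scaling these medians were -0.26 for CHQ minus ELA (2319 higher, 3205 lower) and -0.20 for AZA minus ELA (2357 higher, 2487 lower, in place of 2731 and 2175). The 30 called differences of the other pathway genes kept their sign under both of these scalings, and 1 of the 60 values fell short of the threshold (Mthfd2l in CHQ minus AZA, 0.95 with spike-in scaling). Of the uncalled differences, those of Gcat, Gldc and Phgdh in ELA minus ES, Gldc in AZA minus ELA, Tdh in CHQ minus ELA, and Mat2a and Ahcy in CHQ minus AZA changed sign under some alternative. Mat2a also did so in both treatments against ELA, with the mean over probes, at the most upstream probe, with 75th percentile scaling (-0.15 with AZA, -0.27 with CHQ) and with spike-in scaling (-0.09 and -0.36). Apart from the scalings and the choice of probe, whose construction moves these values, the cause was not tested.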
